A study of Homo sapiens with 8 samples.

Results

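Extracellular matrix and integrin genes were followed in HEK293T cells, a human line of embryonic kidney origin, with and without the exoribonuclease XRN1. Members were chosen by name: genes of collagen, laminin, fibrillin, fibulin, thrombospondin, ADAMTS and integrin chains, with NID1, NID2, HSPG2, AGRN, FN1 and SPARC. The table of 10105 genes held 48 such names, of which 45 encode matrix or integrin chains. The other 3 names share their first letters with these families but encode no such chain: COL4A3BP encodes a ceramide transporter, and ITGB1BP1 and ITGB3BP were named for binding an integrin β chain. Thrombospondins, HSPG2 and FBN1 have no row in the table and were not analysed here.

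Laminins are trimers of an α, a β and a γ chain and, with type IV collagen, nidogens and agrin, form the basement membrane, the sheet on which epithelial and other cells sit. Fibrillar collagens form the fibres of connective tissue, fibrillins and fibulins form microfibrils and elastic fibres, and ADAMTS proteases cleave matrix components. Integrins are pairs of an α and a β chain that span the plasma membrane and bind laminins, collagens or fibronectin outside the cell. XRN1 is an exonuclease of the cytoplasm that digests mRNA from the 5′ end once the cap is gone.

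Total mRNA (RNA-Seq) and ribosome-protected fragments (RPF, Ribo-Seq) were measured in WT HEK293T cells and in an XRN1-null HEK293T line, each with 2 biological replicates, which gave 8 libraries. The XRN1-null line was made with CRISPR/Cas9 and a guide RNA to an exon of XRN1, and a small deletion shifts its reading frame. Cells of both genotypes grew for 24 h on 15 cm dishes until harvest, and no other treatment is named. The sources do not say whether the line is a single clone, and all XRN1-null libraries come from this line, so that what is particular to the line and what follows from the loss of XRN1 cannot be told apart.

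RNA-Seq libraries held 33757487 to 38145433 counts and Ribo-Seq libraries 1921641 to 4399542, and RPF values are therefore the less precise. The 48 members took 0.294 to 0.319% of RNA-Seq and 0.343 to 0.390% of Ribo-Seq counts. As a check of the labels, XRN1 had 33.5 and 33.0 counts in a library total scaled to 1 M (CPM) in WT and 282 and 253 CPM in XRN1-null mRNA, whereas its RPF were 34.4 and 49.8 CPM in WT and 22.6 and 18.4 CPM in XRN1-null cells. By the test described below, XRN1 mRNA rose by 3.01 ± 0.08. Its RPF change of -1.08 ± 0.20 missed the threshold (edgeR's quasi-likelihood test, FDR = 0.00641), so the check is a limited one. The paper reports that XRN1 transcripts of this line retain an intron and that no XRN1 protein was detected. Of the genes this line is known for, 7 of 11 listed had a row, among them NEFL, VIM and WT1, and the mRNA of 3 of these 7 fell, with a median change of -0.07 over the 7, where 23.2% of all genes fell. Rows existed for 1 of 9 fibroblast markers (COL1A1), for 2 of 7 epithelial markers (KRT8 and KRT18, summed mRNA of 72.3 and 86.1 CPM in WT and 99.2 and 101 CPM in XRN1-null cells, with mRNA changes of -0.21 for KRT8 and 0.49 for KRT18, of which the latter was called) and for 0 of 5 endothelial markers. The part of other cell types in the results was not tested. In a bulk sample, fewer cells that express a gene and less RNA per cell cannot be told apart.

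Changes are log2 ratios of XRN1-null over WT ± SE, tested with edgeR's quasi-likelihood test on 2 against 2 libraries and adjusted over all 10105 genes (FDR). Genes below an FDR of 0.005 are said to have risen or fallen. The change in translational efficiency (TE), which is RPF relative to mRNA, was the assay by genotype interaction of a fit over all 8 libraries. The p-values measure the spread between these libraries alone.

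The mRNA of 12 members rose and that of 14 fell, which is 25.0% and 29.2% of members beside 22.9% and 23.2% of all genes. Changes of mRNA were thus about as frequent among members as in the whole table, and the median change was 0.07 for members and -0.01 for all genes. RPF rose for 2 members and fell for 6, beside 0.633% and 1.14% of all genes, and TE fell for 3 members, beside 1.78% of all genes. TE rose for 0 of the 48 members, beside 0.0495% of all genes; by the same edgeR test 3 members had a higher TE at an unadjusted p below 0.05, and DESeq2 called 0. At an FDR below 0.05, 17 members had higher and 16 lower mRNA (all genes, 32.8% and 34.2%), 5 had higher and 12 lower RPF (7.07% and 8.38%), and 1 had higher and 8 lower TE (1.02% and 6.46%).

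Among the 12 members whose mRNA rose, the TE change was negative in 10, which is 83.3% beside 84.7% of all genes whose mRNA rose. Their median change was 0.93 in mRNA and 0.33 in RPF, and the RPF change was positive in 7 of the 12, which is 58.3% beside 83.1% of all genes whose mRNA rose. Among the 14 members whose mRNA fell, the RPF change was negative in 13, which is 92.9% beside 94.1% of all genes whose mRNA fell. The TE change was negative in 10 of the 14, which is 71.4% beside 27.8%. The median TE change was -0.15 for these 14 members and 0.15 for all genes whose mRNA fell, as a description with no test. No member was removed here, but per the methods the deposited table holds only genes that the authors kept above an FPKM of 2. A gene may have a row through a single genotype, and such a choice of rows favours large changes. COL12A1 and ITGA1 had mRNA below 2 CPM per kb in WT cells alone, and LAMA1, COL5A1 and LAMC3 in XRN1-null cells alone. Of the 48 members, 21 (43.8%) passed the threshold in none of mRNA, RPF and TE, beside 53.7% of all genes.

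**Figure D1:**
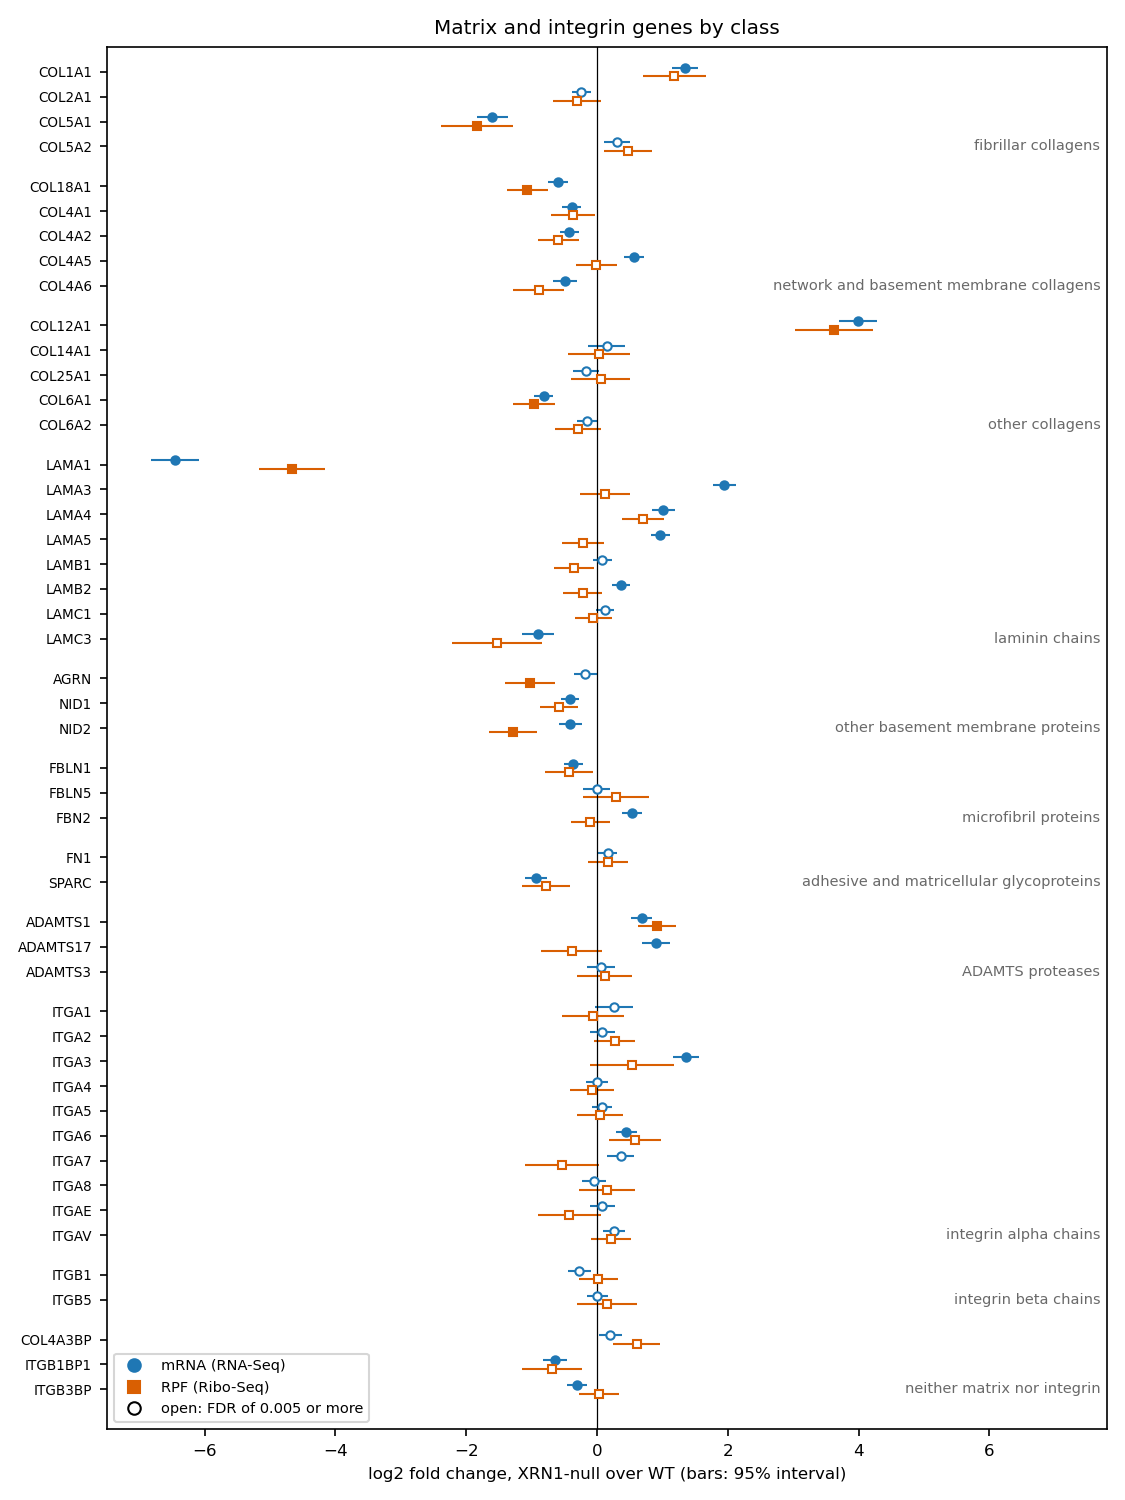
Log2 fold change of XRN1-null over WT cells (horizontal axis) for the 48 members, grouped by class, in mRNA (blue circles, RNA-Seq) and RPF (orange squares, Ribo-Seq), with 95% intervals and open symbols for an FDR of 0.005 or more. The changes ran from LAMA1 (-6.45 in mRNA) to COL12A1 (3.99), 12 members rose and 14 fell in mRNA, and among the 12 integrin chains the filled symbols are the mRNA of ITGA3 and ITGA6.

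The laminin α chains changed their relative levels in both assays. LAMA1, the α1 chain found early in development (chromosome 18, 6941741 to 7117796), was at 35.5 and 33.4 CPM in WT mRNA and at 0.317 and 0.462 CPM in XRN1-null mRNA, which were 12 and 18 counts. Its RPF were 76.0 and 68.0 CPM in WT and 2.23 and 3.43 CPM in XRN1-null cells, or 9 and 11 counts. LAMA1 mRNA fell by 6.45 ± 0.16 and its RPF fell by 4.67 ± 0.23, so that few but detectable transcripts and footprints were left (edgeR's quasi-likelihood test, FDR = 1.92e-06 and 1.37e-06). Its TE change of 1.76 ± 0.43 was the one positive TE change of a member below an FDR of 0.05 (FDR = 0.0273), and rests on these low counts. At 3.57 CPM per kb in WT and 0.0404 CPM per kb in XRN1-null mRNA, LAMA1 may have a row only through its WT level.

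The 3 other α chains in the table moved the other way in mRNA. LAMA3, a chain of epithelial laminins (chromosome 18, 21269417 to 21536186), was at 39.4 and 35.6 CPM in WT and 147 and 142 CPM in XRN1-null mRNA, a rise of 1.95 ± 0.07 (FDR = 3.25e-06). LAMA4, a chain of endothelial and muscle laminins (chromosome 6, 112429134 to 112576141), was at 26.4 and 24.5 CPM in WT and 53.1 and 49.8 CPM in XRN1-null mRNA, a rise of 1.02 ± 0.08 (FDR = 3.26e-05). LAMA5, the most widespread α chain of adult tissue (chromosome 20, 60883011 to 60942368), was at 52.8 and 52.1 CPM in WT and 103 and 102 CPM in XRN1-null mRNA, a rise of 0.97 ± 0.06 (FDR = 1.81e-05). For each of the 3 the WT and XRN1-null libraries did not overlap, which can happen by chance with 2 against 2 libraries. The share of all genes without overlap was not counted.

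The footprints of LAMA3 and LAMA5 did not follow their mRNA. LAMA3 RPF were 25.5 and 22.3 CPM in WT and 25.3 and 25.9 CPM in XRN1-null cells, ranges that meet, with a change of 0.13 and a 95% interval of -0.26 to 0.51. LAMA5 RPF were 49.0 and 53.8 CPM in WT and 43.95 and 45.26 CPM in XRN1-null cells, a change of -0.22 (-0.54 to 0.10). TE fell by 1.82 ± 0.18 for LAMA3 and fell by 1.19 ± 0.13 for LAMA5 (edgeR's quasi-likelihood test on the interaction, FDR = 0.000127 and 0.000311). LAMA4 RPF were higher as well, without passing the threshold: they were 41.1 and 36.1 CPM in WT and 62.1 and 61.8 CPM in XRN1-null cells, a change of 0.70 ± 0.15 at an FDR of 0.0116, and its TE change was -0.31 (-0.63 to 0.02). Without the first XRN1-null Ribo-Seq library the TE calls were lost, with an FDR of 0.00568 for LAMA3 and 0.00957 for LAMA5 at changes of -1.80 and -1.16, and without the second LAMA5 had an FDR of 0.00527. With an offset for gene width the mRNA rise of LAMA5 was 0.45 and stayed past the threshold.

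Per kb of gene width, the mRNA of the 4 α chains together went from 14.9 ± 0.620 CPM per kb (SD, n = 2) in WT to 28.7 ± 0.602 in XRN1-null cells, while their summed RPF level went from 19.2 ± 0.973 to 14.7 ± 0.180 CPM per kb. In mRNA, LAMA3 took 22.5% of the α level in WT and 44.9% in XRN1-null cells, and LAMA1 24.0% and 0.141%. In RPF, LAMA1 took 38.9% in WT and 2.00% in XRN1-null cells, LAMA4 26.6% and 55.8%, LAMA5 23.5% and 26.6%, and LAMA3 11.1% and 15.6%. The chain with the highest α level in XRN1-null cells was therefore LAMA3 in mRNA and LAMA4 in RPF, in both replicates. These sums and shares are descriptions and were not tested. Width takes in untranslated parts in which few footprints lie, and the coding share of the transcript differs between the chains.

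**Figure D2:**
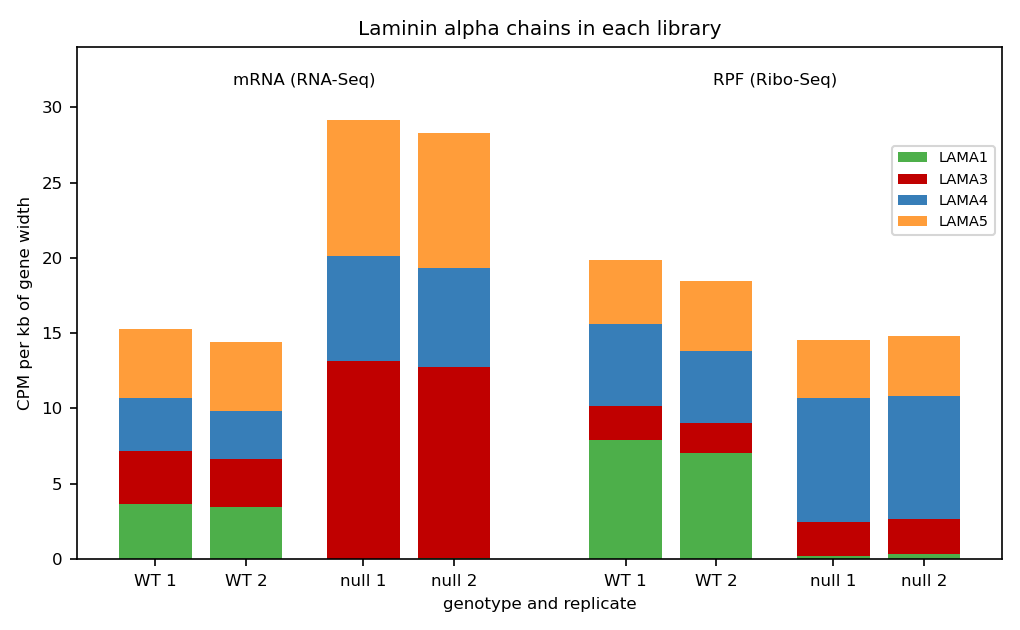
CPM per kb of gene width (vertical axis) of the laminin α chains LAMA1, LAMA3, LAMA4 and LAMA5, stacked, in each of the 8 libraries, with mRNA on the left and RPF on the right. The stacks are higher in XRN1-null than in WT mRNA (28.7 against 14.9 on average) and lower in XRN1-null RPF (14.7 against 19.2), and the LAMA1 layer is almost lost in XRN1-null cells.

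Among the β and γ partners, LAMC1, the γ1 chain of most laminins, was at 313 and 304 CPM in WT and 339 and 332 CPM in XRN1-null mRNA (0.12, interval -0.02 to 0.26), with RPF of 477 and 437 CPM in WT and 444 and 432 CPM in XRN1-null cells. LAMB1 mRNA was at 78.6 and 77.7 CPM in WT and 83.6 and 81.9 CPM in XRN1-null cells, a change of 0.08 (-0.06 to 0.23). Its RPF went from 194 and 174 CPM to 139 and 148 CPM, a change of -0.35 ± 0.14 at an FDR of 0.103. LAMB2 mRNA rose by 0.37 ± 0.06, from 56.5 and 56.6 CPM to 73.0 and 73.1 CPM, and its RPF went from 79.7 and 81.1 CPM to 72.0 and 66.2 CPM, a change of -0.22. The LAMB2 mRNA call was lost with the width offset (0.17, FDR = 0.0389), with thinned RNA-Seq (FDR = 0.0254) and without either XRN1-null RNA-Seq library (FDR = 0.0181 and 0.0191). LAMC3, a minor γ chain, was at 12.7 and 12.9 CPM in WT and 6.66 and 7.04 CPM in XRN1-null mRNA, a fall of 0.90 ± 0.10 that was not called with thinned RNA-Seq (-0.72, FDR = 0.03), and its RPF were 16.1 and 11.0 CPM in WT and 4.72 and 4.06 CPM in XRN1-null cells, a change of -1.53 ± 0.31 at an FDR of 0.0102. LAMC1 kept most of the γ level, with 94.9% in WT and 97.4% in XRN1-null mRNA.

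Of the other basement membrane proteins NID1, NID2 and AGRN, RPF fell for 2 of the 3, beside 1.14% of all genes. NID2, a nidogen that links laminin to type IV collagen (chromosome 14, 52471527 to 52535777), had RPF of 49.0 and 49.6 CPM in WT and 18.1 and 22.8 CPM in XRN1-null cells, and mRNA of 32.3 and 32.5 CPM in WT and 23.7 and 25.1 CPM in XRN1-null cells. Its RPF fell by 1.28 ± 0.17 and its mRNA fell by 0.41 ± 0.07, and the TE change of -0.88 ± 0.17 missed the threshold (FDR = 0.00852). AGRN, a heparan sulfate proteoglycan of basement membranes and of the neuromuscular junction (chromosome 1, 955500 to 991498), had RPF of 59.9 and 46.6 CPM in WT and 27.3 and 23.7 CPM in XRN1-null cells, with mRNA of 81.1 and 76.2 CPM in WT and 65.8 and 72.8 CPM in XRN1-null cells. It was the only member called in RPF and not in mRNA: RPF fell by 1.02 ± 0.18 (edgeR's quasi-likelihood test, FDR = 0.00494), and the mRNA change was -0.18 ± 0.08 (FDR = 0.0625). The RPF call for AGRN lies at the threshold and was lost with DESeq2 (adjusted p = 0.00526), with a minimum of 10 counts and without the second XRN1-null Ribo-Seq library (FDR = 0.0166). NID1, the commoner nidogen, was at 256 and 249 CPM in WT and 192 and 188 CPM in XRN1-null mRNA, a fall of 0.41 ± 0.06, with RPF of 303 and 289.7 CPM in WT and 205 and 191 CPM in XRN1-null cells, a change of -0.58 ± 0.14 (FDR = 0.0164). The mRNA calls of both nidogens were lost without either XRN1-null RNA-Seq library (FDR = 0.0181 and 0.0252 for NID1, 0.0315 and 0.012 for NID2), and that of NID2 with thinned RNA-Seq (FDR = 0.0125). With the width offset the mRNA change of NID1 was -0.62.

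Type IV collagen chains, which form the network of the basement membrane, are encoded in pairs of genes that start close to each other and are read in opposite directions. Both genes of the pair on chromosome 13 fell in mRNA. COL4A1 was at 55.8 and 55.4 CPM in WT and 42.3 and 42.7 CPM in XRN1-null mRNA, a fall of 0.39 ± 0.06. COL4A2 was at 117 and 119 CPM in WT and 88.0 and 87.9 CPM in XRN1-null mRNA, a fall of 0.42 ± 0.06. RPF of COL4A1 were 74.5 and 60.4 CPM in WT and 50.2 and 52.8 CPM in XRN1-null cells, and those of COL4A2 were 119.8 and 115 CPM in WT and 71.3 and 84.0 CPM in XRN1-null cells. The ratio of the pair in mRNA was thus nearly kept, and the RPF changes of -0.37 (COL4A1) and -0.60 (COL4A2) did not pass the threshold (FDR = 0.12 and 0.0187).

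The pair on chromosome X split in mRNA. COL4A5 was at 37.4 and 40.0 CPM in WT and 57.6 and 57.3 CPM in XRN1-null mRNA, a rise of 0.57 ± 0.07 (edgeR's quasi-likelihood test, FDR = 0.000221). COL4A6 was at 26.2 and 27.1 CPM in WT and 18.8 and 19.1 CPM in XRN1-null mRNA, a fall of 0.49 ± 0.08 (FDR = 0.00095). COL4A5 RPF were 54.2 and 58.3 CPM in WT and 54.6 and 58.1 CPM in XRN1-null cells, while COL4A6 RPF were 38.0 and 35.4 CPM in WT and 17.4 and 22.2 CPM in XRN1-null cells (changes of -0.01 and -0.89). Neither RPF change passed the threshold (edgeR's quasi-likelihood test, FDR = 0.972 for COL4A5 and 0.00914 for COL4A6). The COL4A1, COL4A2 and COL4A6 calls in mRNA were lost when either XRN1-null RNA-Seq library was left out, at nearly the same changes (-0.38 to -0.39, -0.42 and -0.48 to -0.51), and also with thinned RNA-Seq (FDR = 0.0467, 0.00793 and 0.00919). With the width offset the rise of COL4A5 was 0.33 and the changes of COL4A1, COL4A2 and COL4A6 were -0.67, -0.65 and -0.75, all 4 still past the threshold.

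The stretch between the start sites of each pair is shown because one pair moved together and the other apart. Sequences are from RefSeq on GRCh38.p14 (chr13:110307158-110307283 and chrX:108439588-108439837), on the plus strand, which is that of COL4A2 and COL4A5, and end just before the start of these genes. Capitals mark GGGCGG (GC box), CCAAT and TATAAA, searched on both strands. The first covers all 126 bases between the starts of COL4A1 and COL4A2. The second covers the 250 bases nearest to COL4A5 of the 379 between it and the nearest listed start of COL4A6. The bases next to COL4A6 are not shown. In the hg19 annotation transcripts of COL4A1 and COL4A2 overlap at their 5′ ends, and reads there could be given to either gene.
COL4A1-COL4A2: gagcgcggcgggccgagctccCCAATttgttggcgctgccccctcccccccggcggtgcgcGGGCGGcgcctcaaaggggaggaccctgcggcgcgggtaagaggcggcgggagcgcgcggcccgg
COL4A6-COL4A5: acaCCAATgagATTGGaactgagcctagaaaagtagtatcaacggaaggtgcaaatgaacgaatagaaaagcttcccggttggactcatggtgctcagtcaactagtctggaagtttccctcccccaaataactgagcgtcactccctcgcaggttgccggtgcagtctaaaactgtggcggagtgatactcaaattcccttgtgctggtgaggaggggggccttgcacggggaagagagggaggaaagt

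The stretch of the pair that moved together is 80.2% G and C and holds 1 GC box and 1 CCAAT, whereas that of the pair that split is 51.2% G and C and holds 2 CCAAT, on opposite strands, and no GC box. The median G and C content of 35116 promoters cut to the same lengths was 60.3% at 126 bases and 58.0% at 250 bases. TATAAA occurs in neither. Of these promoters, taken upstream of their start, 34.6% hold GGGCGG, 21.1% CCAAT and 5.87% TATAAA at 126 bases, and 42.6%, 32.0% and 10.7% at 250 bases. Matches of letters are descriptions and not sites, and 2 pairs allow no comparison of sequence with response.

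COL18A1, a basement membrane collagen whose end fragment is endostatin (chromosome 21, 46825080 to 46933634), fell in both assays. Its mRNA was at 159 and 167 CPM in WT and 106 and 109 CPM in XRN1-null cells, a fall of 0.60 ± 0.06. RPF were 120.3 and 107 CPM in WT and 52.1 and 55.6 CPM in XRN1-null cells, a fall of 1.07 ± 0.14 (edgeR's quasi-likelihood test, FDR = 0.00193). Of the 5 network and basement membrane collagens, mRNA thus fell for 4 and rose for 1, and RPF fell for 1 (all genes, 23.2% lower and 22.9% higher in mRNA and 1.14% lower in RPF). Without the first XRN1-null Ribo-Seq library COL18A1 RPF had an FDR of 0.012 at -1.02.

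**Figure D3:**
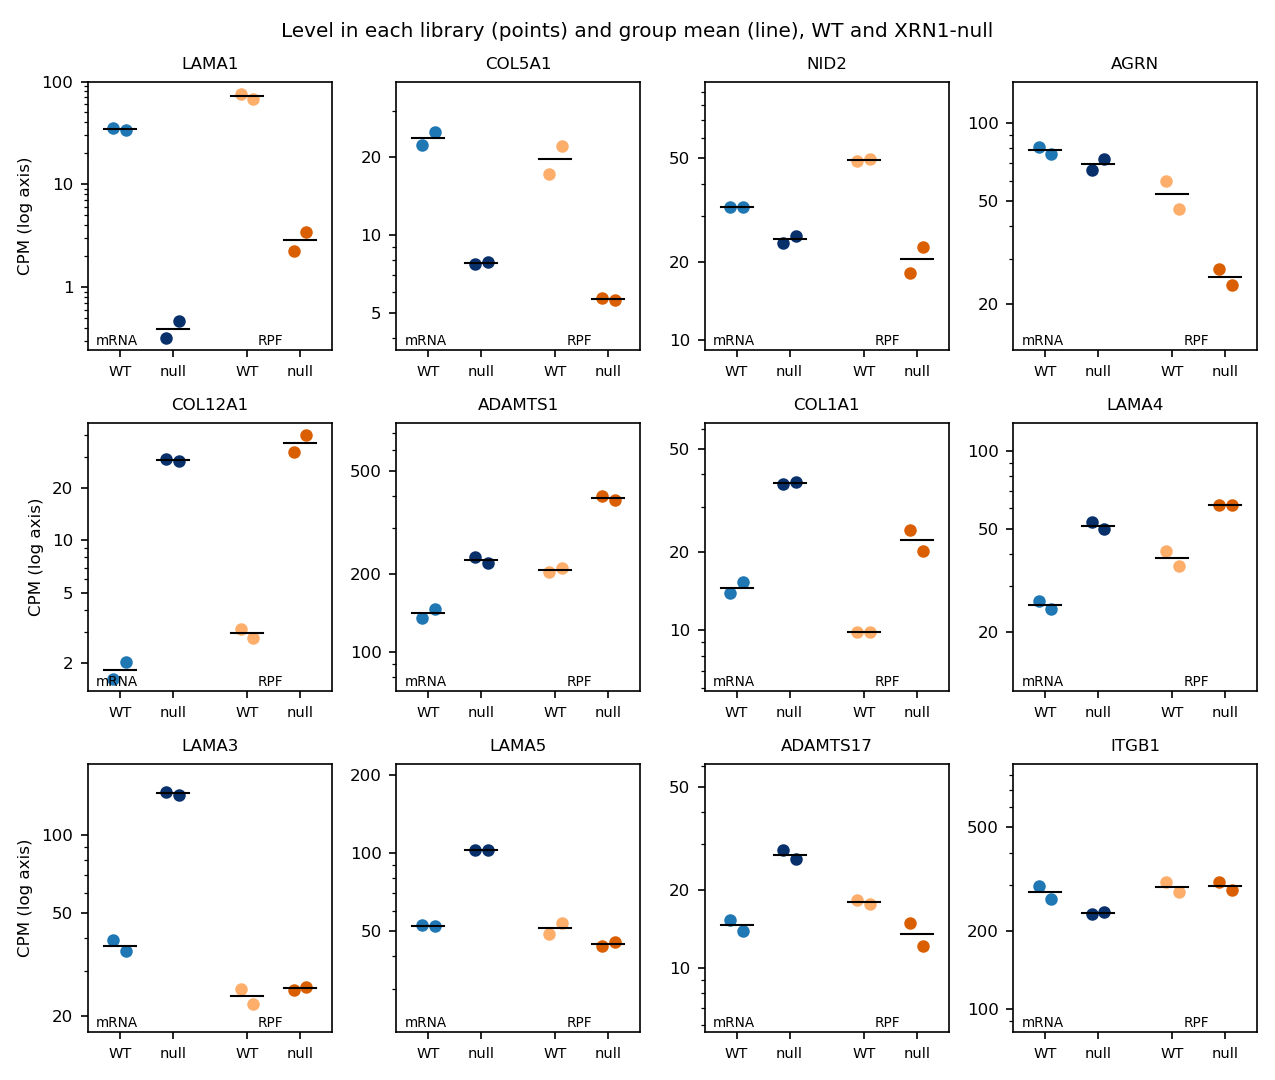
CPM (log axes) of 12 members in each library as points, with the group mean as a line, in WT and XRN1-null mRNA (blue) and RPF (orange). LAMA3, LAMA5 and ADAMTS17 separate in mRNA, higher in XRN1-null cells, while their RPF changes were 0.13, -0.22 and -0.39 and none was called, NID2 and AGRN separate more in RPF than in mRNA, and ITGB1 has RPF between 281 and 308 CPM in all 4 Ribo-Seq libraries.

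Among the fibrillar collagens, COL1A1 and COL5A1 moved in opposite directions. COL1A1, the main chain of type I collagen (chromosome 17, 48261462 to 48278993), was at 13.9 and 15.4 CPM in WT and 36.8 and 37.3 CPM in XRN1-null mRNA, a rise of 1.34 ± 0.08 (FDR = 1.72e-05). Its RPF were 9.90 and 9.88 CPM in WT and 24.3 and 20.3 CPM in XRN1-null cells, a change of 1.18 ± 0.22 just outside the threshold (FDR = 0.00642). COL1A2, which supplies the other chain of type I collagen, has no row in the table.

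COL5A1, a chain of type V collagen that takes part in starting type I fibres (chromosome 9, 137533649 to 137736689), was at 22.2 and 24.9 CPM in WT and 7.72 and 7.83 CPM in XRN1-null mRNA. Its RPF were 17.2 and 22.1 CPM in WT and 5.71 and 5.62 CPM in XRN1-null cells. COL5A1 mRNA fell by 1.60 ± 0.10 and RPF fell by 1.83 ± 0.25 (edgeR's quasi-likelihood test, FDR = 1.75e-05 and 0.0022). The partner chain COL5A2 had changes of 0.31 in mRNA (FDR = 0.0134) and 0.47 in RPF (FDR = 0.0729), so that the pair of chains of this collagen did not go the same way. COL2A1, the collagen of cartilage, had changes of -0.24 and -0.31 that missed the threshold.

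COL12A1, a collagen bound to the surface of type I fibres (chromosome 6, 75794042 to 75915983), had the highest rise of the 48 members in both assays. It went from 1.61 and 2.01 CPM to 29.2 and 28.3 CPM in mRNA and from 3.13 and 2.76 CPM to 32.0 and 40.3 CPM in RPF. It rose by 3.99 ± 0.12 in mRNA and 3.63 ± 0.27 in RPF (edgeR's quasi-likelihood test, FDR = 2.51e-06 and 3.33e-05), with a TE change of -0.35 (-1.20 to 0.50). In WT cells it was also the member with the lowest mRNA level per kb, 0.156 CPM per kb, and reached 2.48 CPM per kb in XRN1-null cells, beside 6.25 for COL1A1. The authors kept genes above an FPKM of 2, so COL12A1 may have a row only through its XRN1-null level. A minimum of 10 counts in every library removed it from the RPF comparison, since WT libraries had 6 and 12 RPF counts.

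COL6A1, a chain of the beaded filaments around cells (chromosome 21, 47401684 to 47424964), was at 174 and 177 CPM in WT and 97.9 and 101 CPM in XRN1-null mRNA, a fall of 0.82 ± 0.06. Its RPF were 173 and 147 CPM in WT and 79.5 and 84.0 CPM in XRN1-null cells, a fall of 0.96 ± 0.15 (edgeR's quasi-likelihood test, FDR = 0.0031), and the FDR was 0.0352 and 0.0181 without the first or the second XRN1-null Ribo-Seq library. COL6A2, which joins COL6A1 in the same trimer and lies on the same chromosome, had changes of -0.15 in mRNA (-0.30 to 0.00) and -0.29 in RPF (-0.64 to 0.05). Over all 14 collagen chains, mRNA rose for 3 and fell for 6 (all genes, 22.9% and 23.2%), and RPF rose for 1 and fell for 3 (0.633% and 1.14%). TE was called for 0 of them by edgeR's quasi-likelihood test, 3 had a lower TE at an unadjusted p below 0.05, and DESeq2 called 0.

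SPARC, a collagen-binding glycoprotein (chromosome 5, 151040657 to 151066536), was at 42.4 and 43.9 CPM in WT and 22.3 and 22.9 CPM in XRN1-null mRNA, a fall of 0.93 ± 0.07. Its RPF went from 50.0 and 42.7 CPM to 28.6 and 24.3 CPM, a change of -0.78 ± 0.17 (FDR = 0.0118). FN1, the fibronectin that integrins bind, was at 44.4 and 43.2 CPM in WT and 48.8 and 49.4 CPM in XRN1-null mRNA and did not pass the threshold (0.16 ± 0.06, FDR = 0.0484). Its RPF were 83.3 and 87.1 CPM in WT and 89.4 and 103 CPM in XRN1-null cells. The TE change of FN1 was 0.00 with an interval of -0.29 to 0.29.

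In the microfibril class, FBN2, a fibrillin of developing tissue, rose by 0.53 ± 0.06 in mRNA from 125 and 126 CPM to 187 and 176 CPM, while its RPF were 351 and 315 CPM in WT and 312 and 308 CPM in XRN1-null cells. The TE change of FBN2 was -0.63 ± 0.13 and missed the threshold by edgeR's quasi-likelihood test (FDR = 0.0151), whereas DESeq2 called it (adjusted p = 0.00134), so that DESeq2 gave 4 members with a lower TE where edgeR gave 3. With the offset for gene width the mRNA change of FBN2 was 0.06 (edgeR's quasi-likelihood test, FDR = 0.406), and the call was lost, as it was without the first XRN1-null RNA-Seq library (FDR = 0.00609). FBLN1 mRNA fell by 0.36 ± 0.06, a call lost without either XRN1-null RNA-Seq library (FDR = 0.0253 and 0.0293) and with thinned RNA-Seq (FDR = 0.0457), and FBLN5 had a change of 0.00 in mRNA and 0.28 in RPF.

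The 3 ADAMTS proteases showed 3 patterns. ADAMTS1, which cleaves large proteoglycans (chromosome 21, 28208074 to 28217728), was at 135 and 147 CPM in WT and 232 and 220.4 CPM in XRN1-null mRNA, and its RPF went from 203 and 211 CPM to 398 and 384 CPM. It rose by 0.68 ± 0.07 in mRNA and 0.92 ± 0.13 in RPF (edgeR's quasi-likelihood test, FDR = 0.000127 and 0.00291), and with COL12A1 it was 1 of the 2 members that rose in both; the RPF call was lost without the first (FDR = 0.0333) or the second (FDR = 0.0203) XRN1-null Ribo-Seq library.

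ADAMTS17 (chromosome 15, 100511642 to 100882210) rose in mRNA from 15.3 and 13.9 CPM to 28.4 and 26.2 CPM. Its RPF were 18.2 and 17.7 CPM in WT and 14.9 and 12.2 CPM in XRN1-null cells, below WT in both replicates with a change of -0.39 (-0.85 to 0.07). TE fell by 1.29 ± 0.22 (edgeR's quasi-likelihood test, FDR = 0.00416). This call lies near the threshold: it was lost when any 1 of 7 of the 8 libraries was left out (the first WT RNA-Seq library is the exception), with an FDR of up to 0.0353 at changes of -1.16 to -1.46, and when RNA-Seq counts were thinned to match Ribo-Seq it was -0.88 (FDR = 0.0709). The mRNA rise, 0.90 at full depth, was 0.50 in the thinned counts and not called (FDR = 0.0331), and with the width offset the TE change had an FDR of 0.00886. ADAMTS3, which removes the end of procollagen, had changes of 0.06 in mRNA and 0.12 in RPF.

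**Figure D4:**
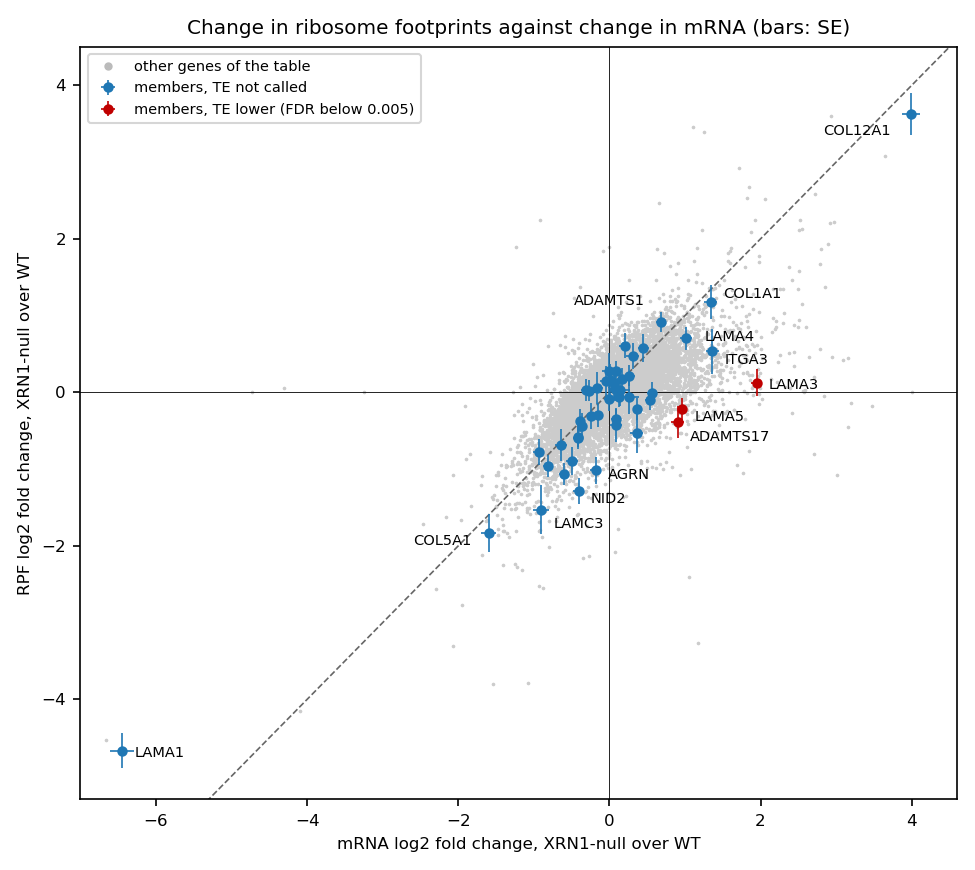
Change in RPF (vertical axis) against change in mRNA (horizontal axis), both log2 of XRN1-null over WT, for the 48 members (points with SE bars) and all other genes (grey), with a dashed line where they are equal. LAMA3, LAMA5 and ADAMTS17 (red), whose TE fell, lie at mRNA changes of 1.95, 0.97 and 0.90 and RPF changes of 0.13, -0.22 and -0.39, and LAMA1 lies far from the others at -6.45 and -4.67.

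Of the 12 integrin chains, the mRNA of 2 rose and that of none fell, and RPF and TE were called for 0; of all genes 22.9% rose and 23.2% fell in mRNA, and RPF and TE calls made up 0.0495% to 1.78% in each direction. By edgeR's quasi-likelihood test at an unadjusted p below 0.05, 1 chain had lower mRNA, 1 had higher RPF and 3 had a lower TE, and DESeq2 called 0 in these. ITGA3, the α chain that pairs with β1 as a laminin receptor (chromosome 17, 48133332 to 48167845), was at 11.3 and 11.0 CPM in WT and 27.8 and 29.5 CPM in XRN1-null mRNA, a rise of 1.36 ± 0.09 (FDR = 1.75e-05). Its RPF were 7.29 and 7.12 CPM in WT and 8.69 and 12.5 CPM in XRN1-null cells, and the change of 0.54 had an interval of -0.10 to 1.17.

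ITGA6, the other laminin-binding α chain that changed, rose by 0.45 ± 0.07 in mRNA from 37.8 and 37.1 CPM to 49.2 and 52.9 CPM (edgeR's quasi-likelihood test, FDR = 0.000843). It had RPF of 53.1 and 35.4 CPM in WT and 64.6 and 62.1 CPM in XRN1-null cells, a change of 0.58 ± 0.18 (FDR = 0.0511). The mRNA call was lost with the width offset (0.23, FDR = 0.0236) and without the second XRN1-null RNA-Seq library (FDR = 0.0135).

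The fibronectin receptor chains did not pass the threshold. ITGA5, the α5 chain, had mRNA of 59.0 and 58.7 CPM in WT and 60.3 and 63.8 CPM in XRN1-null cells (0.08, interval -0.07 to 0.22), and RPF of 47.4 and 42.5 CPM in WT and 50.2 and 41.2 CPM in XRN1-null cells. ITGAV, which pairs with several β chains, had 65.9 and 59.2 CPM in WT and 76.5 and 73.3 CPM in XRN1-null mRNA (0.26 ± 0.07, FDR = 0.016), and RPF of 100.5 and 87.5 CPM in WT and 110.7 and 106 CPM in XRN1-null cells. ITGB1, the shared β1 partner, had 298 and 264 CPM in WT and 232 and 235 CPM in XRN1-null mRNA (-0.27 ± 0.07, FDR = 0.0141), and its RPF were 307 and 281 CPM in WT and 308 and 286 CPM in XRN1-null cells. ITGB5 had mRNA of 41.0 and 39.1 CPM in WT and 40.7 and 39.8 CPM in XRN1-null cells and RPF of 20.8 and 16.3 CPM in WT and 18.1 and 22.2 CPM in XRN1-null cells, with changes of 0.01 and 0.16. In mRNA, ITGB1 took 88.3% of the β level per kb in WT and 86.1% in XRN1-null cells, beside ITGB5 alone.

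Levels between genes were compared per kb of gene width. In WT mRNA the highest members were ITGB1 at 68.8, ITGB3BP at 66.1 and NID1 at 43.0 CPM per kb, and in WT RPF they were ITGB3BP at 112, ITGB1 at 71.9 and LAMC1 at 57.9 CPM per kb. The median member had 6.20 CPM per kb in WT mRNA, beside 15.0 for all genes, and a width of 6088 nt beside 3225 nt. Relative to their mRNA, members carried more footprints than the typical gene: the WT ratio of RPF to mRNA CPM had a median of 1.18 for members and 0.820 for all genes, and 36 of the 48 lay above the latter, as a description with no test. In XRN1-null cells the medians were 1.04 and 0.797.

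Length varied with the changes. Across the 45 matrix and integrin chains, whose coding sequences run from 909 to 11085 nt, the TE change had a Spearman rho of -0.49 with coding length, -0.19 with gene width, and the mRNA change a rho of 0.21 with coding length. Across all 10105 genes the rho with gene width was -0.12 for the TE change and 0.35 for the mRNA change. Genes share libraries and are not independent replicates, so that these are descriptions; the part of length in the changes was tested no further than by the width offset.

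Of the 3 names that encode neither matrix nor integrin chains, ITGB1BP1 was at 93.3 and 82.6 CPM in WT and 54.8 and 57.7 CPM in XRN1-null mRNA, a fall of 0.65 ± 0.08. Its RPF were 27.6 and 23.0 CPM in WT and 17.1 and 13.1 CPM in XRN1-null cells, a change of -0.69 ± 0.21 (FDR = 0.0445). ITGB3BP mRNA fell by 0.31 ± 0.07, from 79.9 and 75.7 CPM to 61.4 and 64.4 CPM, and its RPF were 129 and 134 CPM in WT and 143 and 125 CPM in XRN1-null cells, a change of 0.03. The mRNA call was lost with the width offset (-0.07; edgeR's quasi-likelihood test, FDR = 0.359), with RLE scaling (FDR = 0.00677), with thinned RNA-Seq (FDR = 0.00921) and without either XRN1-null RNA-Seq library (FDR = 0.0827 and 0.0357). COL4A3BP had changes of 0.20 in mRNA and 0.61 in RPF that did not pass the threshold.

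Other genes of the pathway were counted in 4 lists, to be read against the 22.9% of all genes whose mRNA rose and the 23.2% whose mRNA fell. Of 26 genes that fold, modify and crosslink collagen, the mRNA of 5 rose and that of 6 fell. The crosslinking oxidase LOX rose from a mean of 17.7 to 31.7 CPM (0.84 ± 0.08) and the procollagen proteinase BMP1 from 14.2 to 22.9 CPM (0.69 ± 0.08), while the oxidase LOXL1 fell by 1.39 ± 0.13 and the collagen chaperone SERPINH1 fell by 0.71 ± 0.08, from 188 to 115 CPM. Of 26 genes of the integrin adhesion machinery, the mRNA of 5 rose and that of 5 fell. TLN1, the talin that activates integrins, rose by 1.16 ± 0.17 and the adhesion scaffold KANK2 by 0.76 ± 0.09, and the scaffold BCAR1 fell by 0.83 ± 0.07 and PARVB fell by 0.68 ± 0.07.

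Among 13 matrix proteases and inhibitors, the mRNA of 2 rose and that of 4 fell: PLAT (0.61 ± 0.08) and ADAM17 (0.38 ± 0.07) rose, and the inhibitors TIMP1 and SERPINE2 had the largest falls, at -0.82 ± 0.08 and -0.75 ± 0.07. Among 25 other matrix receptors and proteoglycans, the mRNA of 3 rose and that of 10 fell, with the secreted CTGF (0.68 ± 0.15) and CYR61 (0.45 ± 0.08) up and the cell surface proteoglycans SDC3 (-1.09 ± 0.07) and SDC1 (-0.90 ± 0.09) down. Over the 90 genes of the 4 lists, the one RPF call by edgeR's quasi-likelihood test was BCAR1, which fell by 1.11 ± 0.18 (FDR = 0.00418), where 1.14% of all genes fell in RPF. DESeq2 did not call it and called 1 other fall, that of TIMP1 among the proteases and inhibitors (-0.74, DESeq2 FDR = 0.00243). TE was called for 0 of the 90 by either tool, beside 0.0495% higher and 1.78% lower of all genes by edgeR, and at an unadjusted p below 0.05 edgeR gave 4 with a higher and 16 with a lower TE.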

How the data were processed

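Raw counts per gene for 8 libraries were deposited by the authors, who removed ribosomal RNA reads with Bowtie2, mapped reads on hg19 with Tophat2, kept footprints of 29 and 30 nt, counted with QuasR and, per the methods, kept genes above an FPKM of 2. A width per gene was deposited beside the counts; how it was defined, and how the mates of a read pair were counted, is not given in the sources used here. The RNA-Seq totals are well above the mapped reads stated in the methods, as they would be if both mates were counted, so that RNA-Seq counts may not be separate fragments. The RNA-Seq kit as named in the methods does not mark strand. Further deposited tables hold the authors' own log2 fold changes, p-values, FDR and TE ratios from edgeR and RiboDiff, which were not used, and RiboDiff was not run.

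Counts as deposited were fitted with edgeR 4.0.16 in R 4.3.3: TMM factors within each assay, genotype as the only term for mRNA and RPF, and assay, genotype and interaction over all 8 libraries for TE, with Benjamini-Hochberg adjustment over 10105 genes and calls at an FDR below 0.005. SE is the absolute log2 change over the root of its F statistic. CPM refer to the TMM-scaled totals. The test functions were first checked on simulated counts.

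Members and lists were chosen with earlier results of these data known. Values are given in full for the 8 largest rises and falls in mRNA, every call in RPF and TE, the 3 highest levels per kb, and partner chains of laminins, type IV collagen and integrins; of each pathway list, the 2 largest rises and falls in mRNA. Further members were named after their values were seen.

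Gene positions are those of GENCODE release 44 mapped to GRCh37, which has the coordinates of hg19. All 48 members were matched, 1 by an older symbol. On these annotations 34 members overlap a gene on the other strand and 13 one on the same strand, among them LAMA3, LAMA5, ADAMTS17, NID2 and AGRN, whose reads cannot be told from those of the overlapping gene where exons overlap. Start sites and sequences between them came from RefSeq. Alternatives were DESeq2 1.42.0, RLE scaling, a minimum of 10 counts in every library, an FDR of 0.05, a replicate block, an offset for gene width (loess, span 0.3), RNA-Seq thinned to the Ribo-Seq depth, the 45 matrix and integrin chains alone, and leaving out each library. Counts include PCR duplicates.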

Additional observations from a re-analysis of the deposited data

How the results depend on the processing

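No called change of a member changed direction under any alternative run in which it was tested. Uncalled changes and the pathway genes were not followed through all alternatives. The number of members with higher mRNA (12) was between 9 and 17 throughout, and leaving out 1 library at a time gave 10 to 16. For lower mRNA (14), 7 were called once RNA-Seq was thinned to Ribo-Seq totals and 7 to 17 with 1 library left out, with 7 without either XRN1-null RNA-Seq library. For higher RPF (2), 1 was called with a minimum of 10 counts, 5 at an FDR of 0.05 and 1 to 5 with 1 library left out; for lower RPF (6), 12 were called at an FDR of 0.05 and 4 to 15 with 1 library left out (15 without the second WT Ribo-Seq library). For TE, an FDR of 0.05 gave 1 higher and 8 lower, and a culture block (genotype and replicate number) 6 lower; leaving out 1 library gave 0 to 3 lower, with 0 without the first and 1 without the second XRN1-null Ribo-Seq library, and 0 higher. A fit that leaves 1 library in a group assumes that it varies like the other group. Beyond fewer genes or libraries tested, the cause of these shifts was not tested.

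With the replicate block, 5 members had higher and 11 lower RPF, 15 higher and 14 lower mRNA and 3 lower TE. The labels do not say that the same number marks a shared preparation, and library values less their group mean correlated between same-numbered libraries with r = 0.190 in RNA-Seq and 0.0803 in Ribo-Seq. Of the 37 calls, the block kept 37, DESeq2 and RLE scaling 36 each, the minimum of 10 counts 34, the width offset 32, and thinning 19 of the 29 it bears on. The minimum of 10 counts removed LAMA1 and COL12A1 from the RPF comparison.

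Ribo-Seq totals (1921641 to 4399542 counts) limit RPF and TE: the SE of the RPF change was 0.13 or more for every member, and a member without an RPF call is not shown to be unchanged. With 2 libraries in each group, it cannot be told which of a differing pair is the outlying one. No search for an outlying library was made beyond leaving out each in turn.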
